A study of Mus musculus with 6 samples.

Results

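Growth hormone and prolactin signalling was examined through 7 genes, Ghr, Prlr, Stat5a, Stat5b, Socs2, Cish and Ghrh, in a pair of immortalised mouse hypothalamic cell lines. The members were every probe set that the platform annotation names for one of these genes alone, which gave 11 probe sets of 6 genes among 20380 probe sets of 12393 genes. Prlr, the prolactin receptor gene, had no such probe set, and its expression was not analysed here. The lines were A_212, derived from adult hypothalamus, and N_46, derived from embryonic hypothalamus. Both are labelled as expressing Npy (neuropeptide Y), both were immortalised by overexpression of SV40 T-antigen, and both were grown without a stated treatment in DMEM with 5% fetal bovine serum to 70% confluence. RNA from 3 plates of each line was hybridised to 1 oligonucleotide array per plate. Each age is represented by 1 line, so age of origin and any other difference between these lines cannot be told apart, and p-values measure the spread between plates.

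Growth hormone binds a receptor of the class I cytokine receptor family, which has no kinase of its own and relays the signal through the attached kinase JAK2. JAK2 phosphorylates STAT5A and STAT5B, which enter the nucleus and switch on target genes, among them the inhibitors Socs2 and Cish, so that the pathway restrains itself. The prolactin receptor uses the same kinase and the same STATs. In the hypothalamus, neurons that release growth hormone-releasing hormone (GHRH) drive pituitary growth hormone secretion, and the hormone acts back on hypothalamic neurons through its receptor.

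The deposited values are on a log2 scale and were centred by probe set, which puts the median of the 6 arrays at 0. They give differences between arrays and no level, so they do not show whether either line expressed a gene, and no gene's level can be set against another's. Base 2 was inferred, and each fold rests on it. Differences are A_212 minus N_46, positive where A_212 was higher, with the standard error (SE) of a limma fit over all genes. A gene was called at a Benjamini-Hochberg adjusted p under 0.05 over 12393 genes, and 39.2% of all genes tested passed. The arrays of A_212 correlated across genes with r between 0.80 and 0.86 and those of N_46 with r between 0.82 and 0.92. Arrays of different lines gave r between -0.89 and -0.85. In values centred over these 6 arrays, the difference between the lines itself raises r within a line. These r values therefore do not measure how well plates of a line agree. Genes are no independent replicates, and no array was left out. Npy differed by -0.05 ± 0.08 (SE, limma adjusted p = 0.66). Of 12 neuronal markers, Stmn2 (3.09) and Tubb3 (1.13) were higher in A_212, Map2 (-0.25) and Gap43 (-0.24) were higher in N_46, and 8 did not pass, among them Snap25 (-0.09) and Syp (-0.04). The 15 markers of fibroblasts and mesenchyme divided into 10 higher in A_212, 1 higher in N_46 and 4 that did not pass. Their differences were uneven, from -0.55 (Col1a1) to 5.74 (Cdh11), with a median of 0.50. Their mean centred value per array, which the largest differences weigh on, lay between 0.83 and 1.02 in A_212 and between -1.0 and -0.81 in N_46. Of 8 astrocyte markers, 1 was higher in A_212 and 2 in N_46, and of 7 endothelial markers also 1 and 2. Of 7 microglia and macrophage markers, 1 was higher in each line, and of 6 oligodendrocyte markers 1 was higher in A_212 and 0 in N_46. Among all genes tested, 18.3% were called higher in A_212 and 20.9% higher in N_46. Markers of several cell types thus differed between the lines, some in each direction. Their part in the differences below was not tested. Which markers are absent from a line cannot be seen in centred values.

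The receptor Ghr, the transducer Stat5a and the inhibitor Socs2 were higher in the adult-derived line A_212, and Stat5b, Cish and Ghrh did not pass the test. Thus 3 of the 6 measured members were called, all 3 higher in A_212, beside 18.3% of all genes tested that were called in that direction and 20.9% called higher in N_46. With a difference of at least 1 as a further condition, Socs2 and Ghr were called higher in A_212, beside 3.61% of all genes called in that direction. The median difference of the 6 members was 0.28, and that of all genes was -0.06. Values of A_212 and N_46 arrays did not overlap in 5 of the 6 members, beside 51.1% of all genes. By probe set, 7 of 11 were called, beside 37.4% of all probe sets named for 1 gene.

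**Figure D1:**
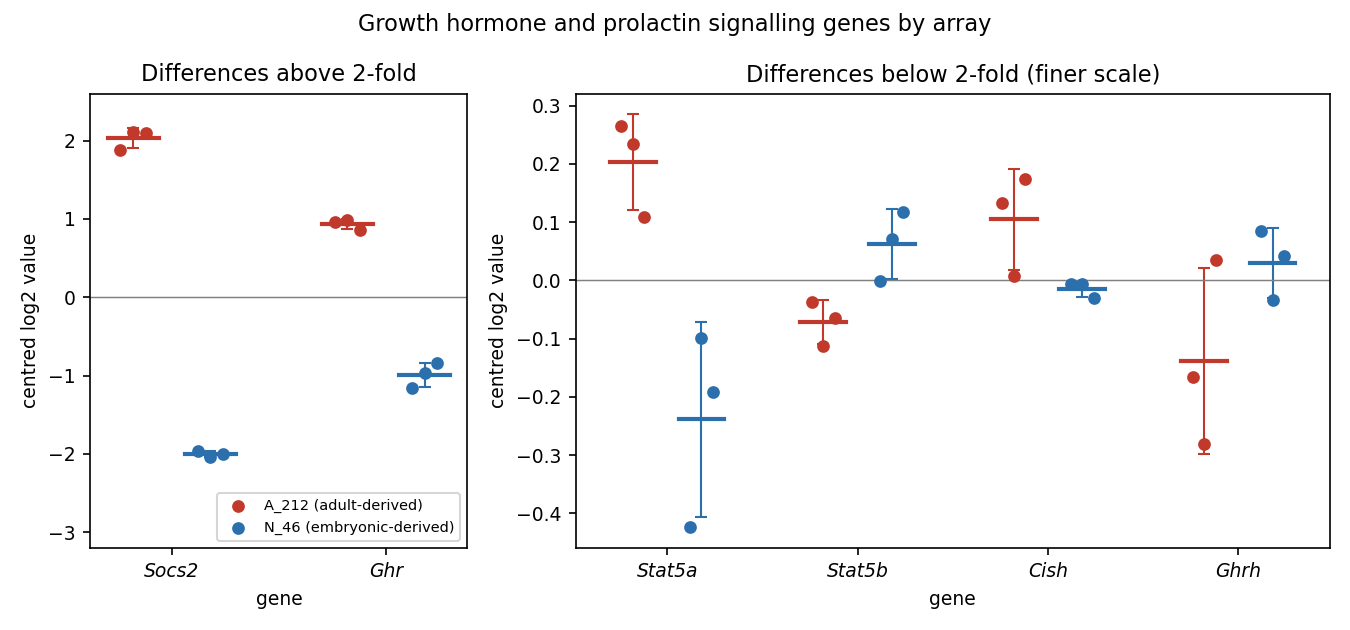
Centred log2 values (vertical axes) of the 6 measured genes on the 3 arrays of A_212 (red, left of each pair) and the 3 arrays of N_46 (blue), with means as bars and SDs as error bars. Socs2 and Ghr, on the left axis, lie far apart between the lines, and the right axis has a finer scale on which only Ghrh overlaps.

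Ghr encodes the growth hormone receptor, whose shed or alternatively spliced extracellular part also circulates as a binding protein. Its centred value was 0.96, 0.99 and 0.86 on the A_212 arrays, against -1.15, -0.97 and -0.85 on the N_46 arrays. All A_212 arrays lay above all N_46 arrays, and the closest pair of plates from different lines was 1.71 apart. The difference was 1.93 ± 0.09 (SE, n = 3 arrays per line), or 3.80-fold, with a limma adjusted p of 5.4e-08. In order of differences from the highest in A_212, Ghr stood at place 170 of 12393 genes. Its 3 probe sets were all higher in A_212 but differed in size. Probe set 1451501_a_at differed by 2.73 ± 0.09, probe set 1417962_s_at by 1.67 ± 0.08 and probe set 1451871_a_at by 1.37 ± 0.14 (limma over all probe sets, adjusted p = 4.0e-09, 4.9e-08 and 1.9e-05).

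The third of these probe sets also varied most between plates of N_46, where it read -1.10, -0.80 and -0.48, against 0.69, 0.58 and 0.48 in A_212. Within each array, the first probe set minus the second was between 0.43 and 0.60 in A_212 and between -0.62 and -0.48 in N_46, so the probe sets disagreed on the size of the difference by 1.06. An exact permutation test over arrays gave p = 0.10 for this contrast (two-sided, the smallest that 3 against 3 arrays allow, 0.14 after Benjamini-Hochberg over 7 such contrasts). The first and second probe sets exceeded the third by 1.36 and 0.30 (exact permutation p = 0.10 and 0.20, or 0.14 and 0.23 adjusted). All 3 probe sets are of types that can match several transcripts, and which Ghr transcripts each one reads was not analysed here. RefSeq (GRCm38.p6) gives Ghr a pair of start windows on the minus strand, shown because the gene differed between the lines and its probe sets differed in size. Each runs from 250 bases before to 50 bases after an annotated transcript start, and neither holds the STAT binding motif TTCNNNGAA, which reads the same on both strands.
Ghr window at chr15:3583303-3583602: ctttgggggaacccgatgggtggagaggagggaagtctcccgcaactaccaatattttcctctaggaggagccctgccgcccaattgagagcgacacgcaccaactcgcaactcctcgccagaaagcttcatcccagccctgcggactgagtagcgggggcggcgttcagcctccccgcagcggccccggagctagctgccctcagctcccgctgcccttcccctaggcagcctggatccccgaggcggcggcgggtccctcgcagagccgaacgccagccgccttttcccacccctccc
Ghr window at chr15:3581793-3582092: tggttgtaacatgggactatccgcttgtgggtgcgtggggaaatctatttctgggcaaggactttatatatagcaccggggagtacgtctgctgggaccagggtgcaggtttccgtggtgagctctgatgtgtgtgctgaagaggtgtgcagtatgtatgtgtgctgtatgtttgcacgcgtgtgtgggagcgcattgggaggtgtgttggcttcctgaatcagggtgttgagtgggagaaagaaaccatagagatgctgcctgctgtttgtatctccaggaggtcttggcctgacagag

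Socs2 encodes suppressor of cytokine signalling 2, an adaptor of a ubiquitin ligase that targets the activated growth hormone receptor, and mice without it grow larger than normal. It had the largest difference of the measured members. Its centred value was 1.88, 2.11 and 2.10 on the A_212 arrays, against -1.96, -2.04 and -2.01 on the N_46 arrays. The plates of each line lay close together, with an SD of 0.13 in A_212 and 0.04 in N_46, and the closest pair from different lines was 3.84 apart. The difference was 4.03 ± 0.08 (SE, n = 3 arrays per line), or 16.4-fold, with a limma adjusted p of 1.9e-10. Socs2 stood at place 20 of 12393 genes in order of differences from the highest in A_212. Its 2 probe sets differed by 4.25 ± 0.11 and 3.81 ± 0.09, the second of which (1449109_at) is of the plain type, with no suffix that marks several possible transcripts. The probe sets disagreed by 0.44 (exact permutation p = 0.10, or 0.14 adjusted over the 7 contrasts). Leaving out each array in turn gave differences between 3.99 and 4.11.

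**Figure D2:**
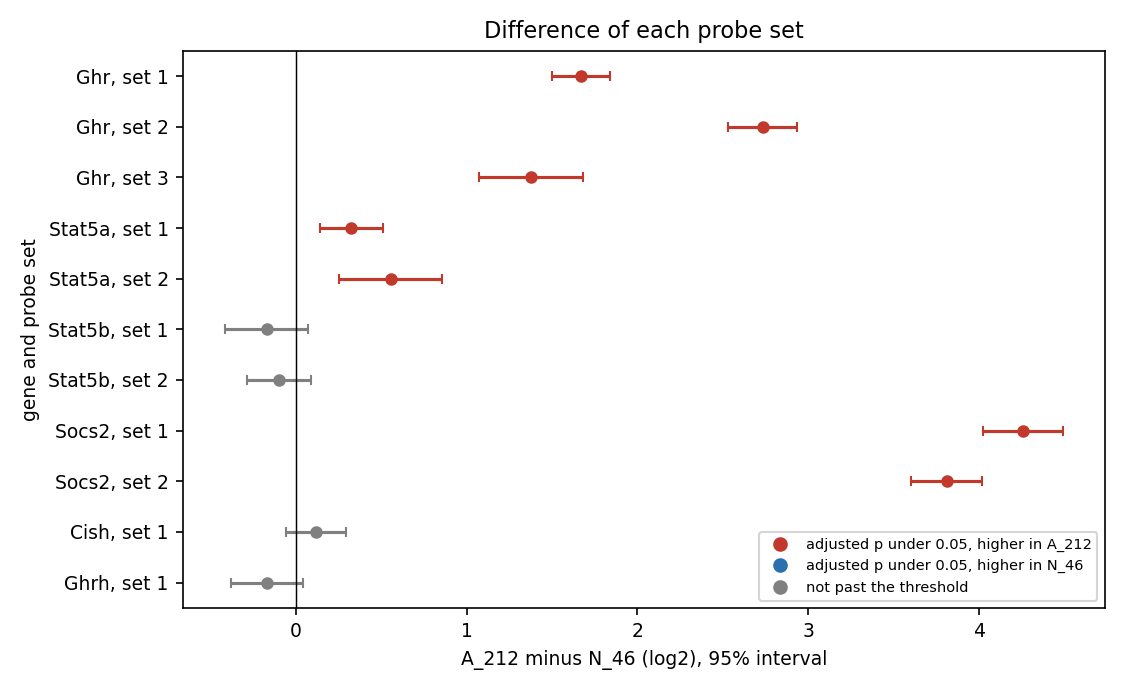
Difference between the lines (A_212 minus N_46, log2, horizontal axis) for each of the 11 probe sets, as points with 95% intervals of the limma fit, red where higher in A_212 at an adjusted p under 0.05 and grey where not past it. The 7 probe sets of Ghr, Stat5a and Socs2 lie to the right of 0, and the 3 of Ghr span 1.37 to 2.73.

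Cish encodes CIS, the founding member of the SOCS family, which binds activated cytokine receptors and competes with STAT5 for docking sites. Its centred value was 0.13, 0.01 and 0.17 in A_212, against -0.01, -0.01 and -0.03 in N_46. The lines did not overlap, but the closest plates were only 0.01 apart. The difference of 0.12 ± 0.07 (95% interval -0.04 to 0.28) did not pass (limma adjusted p = 0.22). Within each array, the Socs2 value minus the Cish value was 1.93 ± 0.18 in A_212 and -1.99 ± 0.04 in N_46 (SD, n = 3 each). The difference of the contrast was 3.91 (exact permutation p = 0.10, two-sided, the smallest possible here, 0.14 after adjustment over 7 contrasts). The wide gap of Socs2 and the narrow range of Cish fixed this p beforehand, so it adds no evidence. The Cish start window is shown because Cish is a textbook STAT5 target and its window alone among those searched for the measured members holds the STAT motif. It lies on the plus strand, and capitals mark the matches to TTCNNNGAA.
Cish window at chr9:107296409-107296708: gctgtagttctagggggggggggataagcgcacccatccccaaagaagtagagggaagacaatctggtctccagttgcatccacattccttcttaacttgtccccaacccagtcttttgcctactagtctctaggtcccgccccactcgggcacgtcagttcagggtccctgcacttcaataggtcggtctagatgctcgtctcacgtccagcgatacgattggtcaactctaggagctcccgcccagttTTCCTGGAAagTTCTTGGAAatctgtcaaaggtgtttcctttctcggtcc

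The Cish window held 2 matches, TTCCTGGAA and TTCTTGGAA, the second beginning 11 bases after the first. Of 32851 start windows of the same length in the RefSeq table, 8.30% held at least 1 match and 0.457% held 2 or more. A match in letters is not evidence of binding in these lines. Ghr, Stat5a, Stat5b and Ghrh held no match in 2 windows each, and no window was used for Socs2. Prlr, whose expression was not analysed, held 1 match in 1 of its 3 windows.

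STAT5A and STAT5B are near-identical transcription factors encoded side by side on chromosome 11, of which STAT5B is known as the main carrier of growth hormone signals in liver and STAT5A of prolactin signals in mammary gland. Stat5a read 0.27, 0.23 and 0.11 in A_212, against -0.42, -0.10 and -0.19 in N_46. The lines did not overlap, and N_46 replicate 1 lay lowest. Stat5a differed by 0.44 ± 0.09 (SE, n = 3 arrays per line), or 1.36-fold, with a limma adjusted p of 0.0035. Both of its probe sets were called, at 0.33 ± 0.08 and 0.56 ± 0.14, which disagreed by 0.23 (exact permutation p = 0.50 before and after adjustment over 7 contrasts). Leaving out each array in turn gave differences between 0.35 and 0.51, all of them past the threshold.

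Stat5b read -0.04, -0.11 and -0.06 in A_212, against -0.002, 0.07 and 0.12 in N_46. The A_212 plates lay below the N_46 plates by a narrow gap of 0.03, and each of its 2 probe sets taken alone overlapped. The difference of -0.13 ± 0.07 (95% interval -0.29 to 0.02) did not pass (limma adjusted p = 0.16). Within each array, Stat5a minus Stat5b was between 0.17 and 0.35 in A_212 and between -0.42 and -0.17 in N_46. That contrast differed by 0.57 (exact permutation p = 0.10, two-sided, the smallest possible with 3 arrays per line, 0.14 after adjustment over 7 contrasts). Since Stat5a lay higher and Stat5b lower on every A_212 array, this p was fixed beforehand and adds no evidence.

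The paralogs also share sequence at their starts, and whether their probe sets cross-hybridise was not analysed here. In 1 start window of each gene, a stretch of 65 bases was identical at 58 positions (89.2%), found as the best ungapped match between the windows. It is shown to let the copies be compared, with capitals at the 7 positions that differ. The Stat5a stretch lies at chr11:100860418-100860482 on the plus strand and the Stat5b stretch at chr11:100822563-100822627 on the minus strand (GRCm38.p6).
Stat5a: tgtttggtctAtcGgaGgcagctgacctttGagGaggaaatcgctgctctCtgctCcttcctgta
Stat5b: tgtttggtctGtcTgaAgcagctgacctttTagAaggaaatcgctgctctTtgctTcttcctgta

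Ghrh encodes growth hormone-releasing hormone, the peptide of arcuate neurons that stimulates the pituitary. It read -0.17, -0.28 and 0.03 in A_212, against 0.08, -0.03 and 0.04 in N_46, so that the lines overlapped through A_212 replicate 3. The difference of -0.17 ± 0.09 (95% interval -0.37 to 0.03) did not pass (limma adjusted p = 0.17). Without A_212 replicate 3 it was -0.25 and passed (limma adjusted p = 0.029), and without A_212 replicate 2 it was -0.10 (0.47). That change was not particular to Ghrh, since Prl and Igf1, described below, also passed only without A_212 replicate 3. Across all genes, leaving out that array gave the most calls of any setting, 5124 against 4853. The median difference of all genes was then -0.08, against -0.06 with all arrays. Of 6 other measured markers of GHRH neurons, 1 was higher in N_46 and 5 did not pass (16.7% called, beside 39.2% of all genes). The homeobox gene Hmx2 differed by -0.73 ± 0.10 (limma adjusted p = 0.00017), and galanin (Gal), a peptide of GHRH neurons, by -0.17 ± 0.08.

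Genes acting upstream of the receptor were called in 7.69% of cases, beside 39.2% of all genes. Of 13 measured ligands, regulators and receptors of the growth hormone and prolactin axis, 1 was higher in A_212, 0 were higher in N_46 and 12 did not pass, with a median of -0.13. The 1 gene called was Vip, whose peptide stimulates prolactin release (0.49 ± 0.11, limma adjusted p = 0.0041). The hormone genes Gh and Prl differed by -0.14 ± 0.08 and -0.25 ± 0.13 (limma adjusted p = 0.19 and 0.16), and the GHRH receptor gene Ghrhr by -0.10 ± 0.08 (0.37). Prl read -0.30, -0.45 and 0.12 in A_212, against -0.01, 0.12 and 0.01 in N_46, and without A_212 replicate 3 it passed at -0.41 (limma adjusted p = 0.0052), whereas without A_212 replicate 2 it was -0.13 (0.48). The 5 somatostatin receptor genes, whose ligand restrains growth hormone release, lay between -0.26 and -0.07 and did not pass.

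The gene for the kinase JAK2 was also higher in A_212. Jak2 read 0.30, 0.37 and 0.22 in A_212, against -0.24, -0.20 and -0.27 in N_46, without overlap. It differed by 0.54 ± 0.07 (limma adjusted p = 0.00017), with its 2 probe sets at 0.58 and 0.50. Of 17 measured JAK kinases and adaptors, 3 were higher in A_212, 4 were higher in N_46 and 10 did not pass, with a median of -0.04. The share called, 41.2%, was close to the 39.2% of all genes. Tyk2, a JAK of interferon and other cytokine receptors (0.29), and the adaptor Shc1 (0.36) were also higher in A_212. Irs2, an adaptor of the insulin receptor that growth hormone can also engage (-1.71), the Ras exchange factor Sos2 (-0.73) and the kinase gene Src (-0.41) were higher in N_46.

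Of the 4 STAT genes measured besides Stat5a and Stat5b, 3 were higher in A_212 and 1 was higher in N_46, with a median of 0.60, beside 18.3% and 20.9% of all genes called in these directions. Stat6, which carries interleukin-4 signals, differed by 0.75 ± 0.09, Stat2, which carries interferon signals, by 0.60 ± 0.07, and Stat3, which carries leptin and interleukin-6 signals, by 0.59 ± 0.08 (limma adjusted p between 5.2e-05 and 0.00015). Stat3 had 1 of its 3 probe sets at 0.15, not past the threshold (limma adjusted p = 0.37), and the others at 0.73 and 0.89. Stat4 differed by -0.25 ± 0.07, a call that ended without N_46 replicate 2 (limma adjusted p = 0.095) and without N_46 replicate 3 (0.085).

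**Figure D3:**
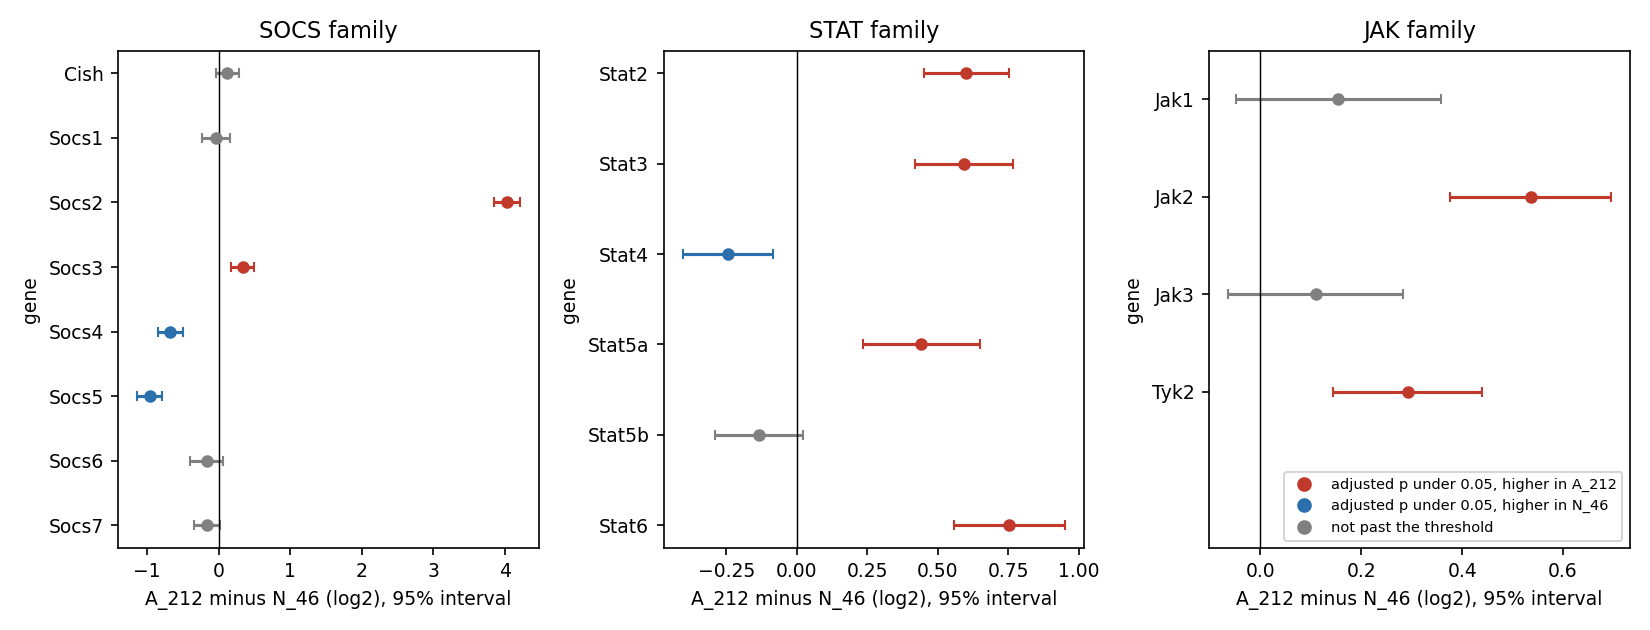
Difference between the lines (A_212 minus N_46, log2, horizontal axes, scaled separately) of the measured SOCS, STAT and JAK genes, with 95% intervals of the limma fit. Red and blue mark genes called higher in A_212 and in N_46, and grey those not past the threshold. Socs2 stands at 4.03 while the other SOCS genes lie between -0.96 and 0.34.

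Of the 8 measured SOCS genes, Cish included, 2 were higher in A_212, 2 were higher in N_46 and 4 did not pass, beside 18.3% of all genes called higher in A_212 and 20.9% in N_46. Besides Socs2, Socs3, the inhibitor of leptin and interleukin-6 receptors, was higher in A_212 by 0.34 ± 0.07 (limma adjusted p = 0.0035). With its plain probe set alone the Socs3 difference was 0.17 and did not pass (adjusted p = 0.11). Socs5 and Socs4 were higher in N_46, at -0.96 ± 0.08 and -0.67 ± 0.08. Socs1, an inhibitor of interferon receptors, differed by -0.03 ± 0.09. Over all 16 measured inhibitors of JAK-STAT signalling besides Socs2 and Cish, 3 were higher in A_212, 5 were higher in N_46 and 8 did not pass, with a median of -0.12 and 50% called, beside 39.2% of all genes. The SUMO ligase genes Pias1 (1.04 ± 0.08) and Pias2 (0.47 ± 0.07), known for restraining STATs, were higher in A_212, while Pias4 of the same family (-0.29 ± 0.07) was higher in N_46 and Pias3 did not pass. The phosphatase gene Dusp3 (-0.54 ± 0.08) was also higher in N_46.

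A further list held genes known as targets of STAT5 or growth hormone in other tissues, besides the targets Socs2 (4.03) and Cish (0.12) described above. Of 19 measured, 2 were higher in A_212, 8 were higher in N_46 and 9 did not pass, beside 18.3% of all genes called higher in A_212 and 20.9% in N_46, and the median was -0.17. Igf1, the growth factor through which growth hormone acts in liver, read -0.26, -0.13 and 0.12 in A_212, against 0.05, 0.02 and 0.08 in N_46. The Igf1 values overlapped, and the difference of -0.14 ± 0.10 did not pass (limma adjusted p = 0.28). Without A_212 replicate 3 it passed at -0.25 (limma adjusted p = 0.027), and without A_212 replicate 1 it was -0.06 (0.69). Igfbp3, a carrier of IGF1, read -1.06, -1.19 and -1.12 in A_212, against 1.09, 1.06 and 1.21 in N_46. The Igfbp3 difference of -2.24 ± 0.08 was the largest of this list (limma adjusted p = 5.8e-09). The cyclin gene Ccnd1 (-1.53 ± 0.14) and the stress gene Gadd45g (-1.13 ± 0.10) were also higher in N_46, whereas the cyclin gene Ccnd2 (1.18 ± 0.08) was higher in A_212. The transcriptional repressor gene Bcl6 was called at 0.26 ± 0.07, and the call ended without A_212 replicate 2, N_46 replicate 2 or N_46 replicate 3 (limma adjusted p between 0.056 and 0.085).

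**Figure D4:**
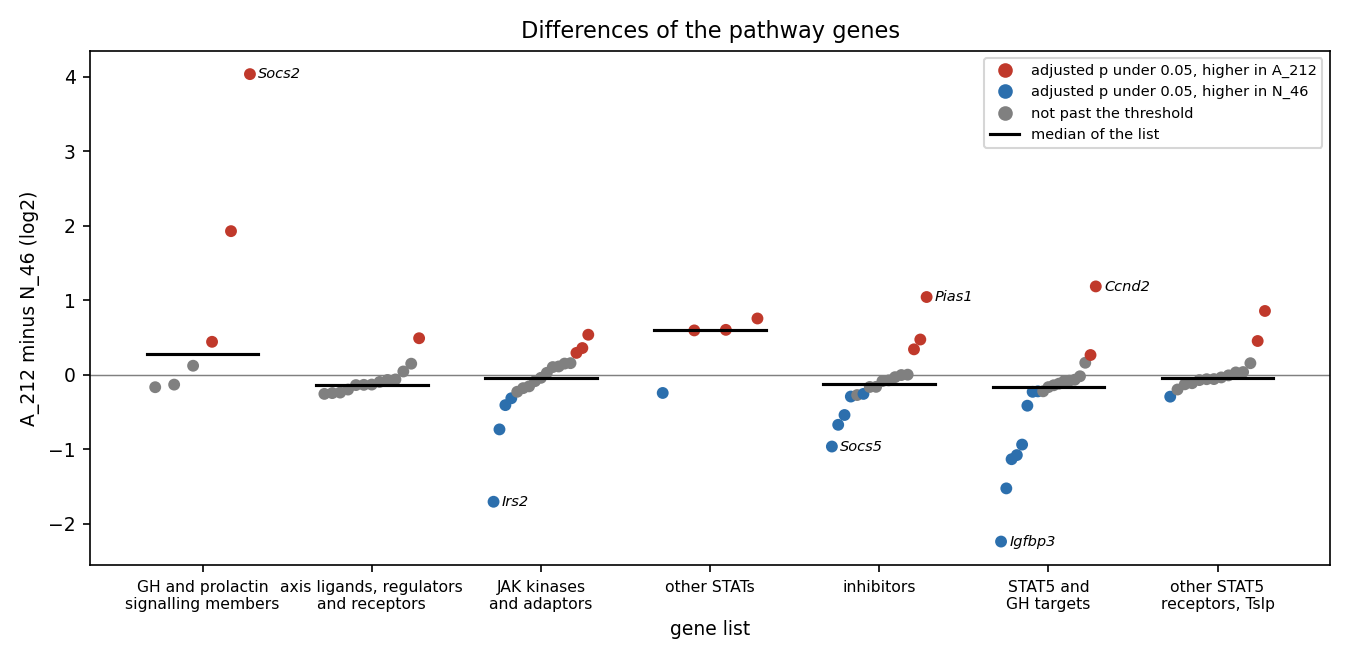
Differences between the lines (A_212 minus N_46, log2, vertical axis) of the 6 members and of the measured genes of 6 pathway lists, each point 1 gene, with black bars for list medians. The genes that stand farthest out are Socs2 at 4.03 and Igfbp3 at -2.24, and the list of other STAT genes has a median of 0.60.

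Of 14 measured genes of other cytokine receptors that use STAT5, with the ligand gene Tslp, 2 were higher in A_212, 1 was higher in N_46 and 11 did not pass, with a median of -0.05 and 21.4% called, beside 39.2% of all genes. Tslp, which encodes a cytokine and no receptor, differed by 0.85 ± 0.11, and the interleukin-3 receptor gene Il3ra by 0.45 ± 0.07 (limma adjusted p = 0.00016 and 0.00069). Crlf2, part of the receptor for the Tslp product, differed by -0.30 ± 0.09 (limma adjusted p = 0.030). The Crlf2 call ended without A_212 replicate 1, A_212 replicate 3, N_46 replicate 1 or N_46 replicate 3 (limma adjusted p between 0.084 and 0.10).

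The genes whose 6 array values lay nearest to those of Socs2, by root mean square distance, were Pdpn (0.10), Cavin2 (0.17) and Lgals9 (0.17), with differences of 3.97, 3.89 and 4.08. For Ghr they were Emp3 (0.06), Nat2 (0.07) and Cldn1 (0.07), with differences of 1.93, 2.02 and 1.92. These distances rest on 6 arrays of 2 lines and are a description.

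The nearest measured neighbours of the members were taken from RefSeq gene order, after the members' values were known. Around Socs2 on chromosome 10, Plxnc1, Cradd, Mrpl42 and Ube2n, 2 on each side, differed by -0.12, -0.20, -0.20 and -0.32. The last 2 passed, both higher in N_46 (limma adjusted p = 0.044 and 0.011), beside 20.9% of all genes called in that direction. Beside Ghr on chromosome 15, the selenium transport gene Selenop was higher in A_212 by 3.34 ± 0.13 (limma adjusted p = 1.9e-08), and on the other side Fbxo4 was higher in N_46, at -0.29 ± 0.07. The next genes outward, Mucl2 (-0.19) and AW549877 (-0.19), did not pass. Around Cish, Rbm15b, Manf, Hemk1 and Cacna2d2 did not pass. Around Ghrh, Manbal (-0.27) and Src (-0.41) were higher in N_46, and Rbl1 and Rpn2 did not pass. Along chromosome 11, Stat5b (-0.13), Stat5a (0.44) and Stat3 (0.59) are consecutive among measured genes.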

How the data were processed

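The members, lists and rules were chosen with earlier results of these data known. Per the labels' protocols, column-purified total RNA (5 µg) was turned into biotinylated cRNA. Per the submitters' processing notes the authors used RMA (background correction, quantile normalisation and probe summary), with no version stated. The deposited log2 values have a median of 0 over the 6 arrays in all 22690 probe sets, within 1e-05, and no source used here describes that step. Quantile normalisation hides any difference in total RNA. The number of arrays limits the precision.

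Probe sets named for 1 gene in the platform annotation were averaged per gene. Lines were compared by a two-sided limma fit (lmFit, eBayes) with Benjamini-Hochberg adjustment over all genes or all probe sets and a threshold of 0.05. In simulated data with 50 genes changed at each size, 66% of differences of 0.5 and 96% of differences of 1 were recovered. Of 191 calls there, 10 were false. The real data had 4853 calls, so the simulation gives neither the error rate nor the share recovered at that share of calls. The text names all members, up to 3 called genes each way per pathway list, some further pathway genes whatever their result and the 3 genes nearest to each member called with a difference of at least 1. Markers, neighbours, Pias3 and Pias4 were named after their values were seen. Same-numbered plates were not paired by the labels. Alternatives were scalings of arrays, a replicate block, leaving out each array, plain probe sets alone, the median of probe sets and robust eBayes. R 4.3.3, limma 3.58.1, Python 3.11.15, pandas 2.3.3, scipy 1.17.1 and matplotlib 3.10.9 were used.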

Additional observations from a re-analysis of the deposited data

How the results depend on the processing

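Under 12 alternatives, the member genes kept their direction and their side of the threshold in every case where they had a value, except Ghrh, which passed without A_212 replicate 3 (-0.25, limma adjusted p = 0.029). Over the alternatives that kept all arrays, Socs2 lay between 3.81 and 4.06 and Ghr between 1.75 and 1.96. Leaving out each array in turn gave 1.84 to 1.998 for Ghr, -0.17 to -0.11 for Stat5b, 0.09 to 0.17 for Cish and -0.25 to -0.10 for Ghrh. With plain probe sets alone, 1 member gene was called, since Socs2 and Cish were the members that had such a probe set. Leaving out each array gave 3903 to 5124 called genes, 3 to 4 called members and 7 to 8 called member probe sets. Socs1 changed sign without A_212 replicate 1 (0.006) and without N_46 replicate 3 (0.015), and was not called in either.

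The correlation of same-numbered plates' deviations was -0.03, -0.01 and 0.09. With a replicate block, 4834 genes and 3 members were called, against 4853 and 3 without it, and Ghr (1.93), Stat5a (0.44) and Socs2 (4.03) were called. Of all calls, 46.7% were higher in A_212, and 52.0% were with each array at the same median. A filter on dim probe sets, a background correction and a slide or date block were not run, because the values are centred and name no batch.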

Other observations

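The array also measured 15 genes of the prolactin family other than Prl, hormones made mainly in the placenta that share ancestry with prolactin, chosen by their symbols after the data were seen. With limma, 0 of the 15 were called after adjustment over all genes and 2 had an unadjusted p under 0.05, beside 39.2% of all genes called. Their differences lay between -0.29 and 0.15, with a median of -0.07.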
